A study of Mus musculus with 12 samples.

Results

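The fibulins and elastic fibre genes examined here are 10 genes taken by symbol from the deposited count tables: Efemp1, Efemp2, Fbln1, Fbln2, Fbln5, Fbn1, Mfap2, Aebp1, Eln and Lox. All 10 were among the 16298 genes listed in any table. The tables made after streptozotocin (STZ) listed all 10, and the baseline tables listed 9, without Fbln1. The set was selected on a measured value, since it was drawn up around Efemp1, which earlier results of these data had shown to be high in Dach1 knockout glomeruli after STZ. The values of that comparison are therefore given as a description, without a p-value for any of the 10 genes.

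RNA was sequenced from isolated glomeruli of C57BL/6 mice, 3 different mice in each of 4 groups. The groups were podocyte-specific Dach1 knockouts after STZ, controls after STZ, podocyte-specific Dach1 knockouts at baseline and controls at baseline. STZ, which kills the beta cells of the pancreas and so makes mice diabetic, was injected on 5 days at 50 µg per g per day and RNA was isolated 10 days later. The baseline mice were 10 weeks old and untreated. The age of the STZ mice, the sexes, the Cre line that deletes Dach1 and the alleles that the controls carry are not given in the labels. The titles of the STZ controls begin with "hetN", which the labels do not explain, whereas those of the baseline controls begin with "Ctrl". Glomeruli were collected with magnetic beads perfused through the heart, so each library holds the RNA of podocytes, endothelium, mesangium and whatever arteriole or tubule came with them. In such bulk RNA, fewer cells of a type and less RNA per cell cannot be told apart.

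Totals were 6.61e+07 to 7.86e+07 counts in the STZ libraries and 2.26e+07 to 2.49e+07 counts in the baseline libraries. The STZ tables hold only genes with a count of at least 100 in some STZ library, while 362 genes of the baseline tables stayed under 100 throughout. Depth and this filter therefore change together with STZ, and their parts in any STZ difference cannot be told apart. Dach1, which encodes a nuclear regulator of transcription, had 55.8, 65.9 and 67.0 CPM (counts scaled to the size of the library) in STZ knockouts, against 145, 175 and 183 CPM in STZ controls. At baseline Dach1 had 47.2, 56.7 and 59.3 CPM in knockouts, against 162, 106 and 188 CPM in controls. All 6 knockout libraries thus lay below all 6 control libraries for the deleted gene. Podocyte markers were abundant throughout, and the sum of 8 of them ran from 18158 to 36030 CPM over the 12 libraries.

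Fibulins are secreted glycoproteins built from repeats of EGF-like modules and a shared C-terminal domain. Elastic fibres form when tropoelastin, the product of Eln, is laid on microfibrils of fibrillin and cross-linked by lysyl oxidase, and the short fibulins bring these parts together. In the kidney, elastic fibres are known mainly from arterial walls, whereas the mesangial matrix of the glomerulus holds fibrillin microfibrils with little elastin.

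All 10 genes are protein-coding. In the GENCODE annotation of GRCm38, the genes of the short fibulins lie on chromosome 11 from 28853204 to 28926743 (Efemp1), chromosome 19 from 5473954 to 5482517 (Efemp2) and chromosome 12 from 101746565 to 101819055 (Fbln5). Efemp1 and Aebp1 share chromosome 11, where Aebp1 runs from 5861947 to 5872088. Mfap2 lies on chromosome 4 from 141010418 to 141015984. Fbln1 lies on chromosome 15 from 85205949 to 85286535 and Fbln2 on chromosome 6 from 91212455 to 91272540. Fbn1 lies on chromosome 2 from 125300594 to 125507993 and Eln on chromosome 5 from 134702593 to 134747323. Exons of Efemp2 share 173 bases with the antisense gene Mus81 and those of Fbn1 share 2442 bases with the antisense transcript Gm9913. Antisense overlaps are 267 bases for Eln and 30 bases for Lox, and the other 6 genes share no exonic base with another gene. How the authors' counting treated strand is not stated, so reads in these overlaps cannot be assigned to either strand's gene.

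The stretches just upstream of 5 of these genes are printed because Efemp1, Fbln5, Aebp1 and Mfap2 had higher counts in every STZ knockout than in any STZ control, and Efemp2, a close paralog of Efemp1, did not. They are RefSeq promoter sequences of GRCm38.p6, read 5′ to 3′ on the strand of the gene. They end at the base before the outermost start annotated in RefSeq. They are chr11:28852955-28853153 on the plus strand for Efemp1, chr12:101819120-101819369 on the minus strand for Fbln5, chr11:5861616-5861865 on the plus strand for Aebp1, chr4:141010174-141010423 on the plus strand for Mfap2 and chr19:5473696-5473945 on the plus strand for Efemp2. The RefSeq start of Mfap2 is 141010424, so the last bases of its stretch lie inside the gene as GENCODE places it, from 141010418. Capitals mark matches to the AP-1 motif TGANTCA or to the GC box GGGCGG, on either strand.
Efemp1: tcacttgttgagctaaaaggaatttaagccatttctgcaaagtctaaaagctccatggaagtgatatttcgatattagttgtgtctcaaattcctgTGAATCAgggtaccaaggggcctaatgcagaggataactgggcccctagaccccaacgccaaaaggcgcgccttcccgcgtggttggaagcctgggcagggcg
Fbln5: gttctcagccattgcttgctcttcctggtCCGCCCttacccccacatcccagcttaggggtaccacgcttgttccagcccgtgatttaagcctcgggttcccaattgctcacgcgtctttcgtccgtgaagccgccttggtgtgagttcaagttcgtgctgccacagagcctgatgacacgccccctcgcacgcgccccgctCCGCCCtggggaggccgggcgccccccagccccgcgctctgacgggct
Aebp1: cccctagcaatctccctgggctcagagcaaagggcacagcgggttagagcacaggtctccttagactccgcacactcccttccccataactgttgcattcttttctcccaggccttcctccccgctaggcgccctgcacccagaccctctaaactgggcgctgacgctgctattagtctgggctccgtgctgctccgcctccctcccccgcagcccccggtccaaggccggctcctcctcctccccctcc
Mfap2: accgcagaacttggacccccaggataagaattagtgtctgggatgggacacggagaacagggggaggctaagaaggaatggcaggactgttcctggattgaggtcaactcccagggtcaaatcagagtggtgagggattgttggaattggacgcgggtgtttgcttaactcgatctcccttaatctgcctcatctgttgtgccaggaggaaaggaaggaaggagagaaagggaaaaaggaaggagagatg
Efemp2: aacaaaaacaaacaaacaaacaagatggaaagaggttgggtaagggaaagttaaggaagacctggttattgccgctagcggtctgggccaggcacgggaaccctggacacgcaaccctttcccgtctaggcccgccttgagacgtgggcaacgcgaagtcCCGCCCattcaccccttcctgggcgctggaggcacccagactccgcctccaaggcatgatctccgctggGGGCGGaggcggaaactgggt

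Promoter entries were found for 8 of the 10 genes, and 5 motifs were searched on both strands in the 250 bases before each start. Among 27025 promoters searched the same way, AP-1 occurred in 6.85%, the GC box in 33.0%, the SMAD-binding element CAGAC in 42.2%, the forkhead core TAAACA in 3236 promoters and the TATA box TATAAA in 3507 promoters. Of the 8, only the Efemp1 window held an AP-1 match, which ended 148 bases before the start used for the search. Efemp1 also had a GC box 24 bases before that start, just outside the stretch printed above. Fbln5 and Efemp2 each held 2 GC boxes, and 5 of 8 windows held at least 1. CAGAC was present in 4 of 8 windows, 2 matches each in Aebp1, Efemp2 and Fbln1 and 1 in Mfap2. The forkhead core and the TATA box were in none of the 8 windows. The 5 printed stretches had no motif of those searched in common, and their GC content ran from 49.7% for Efemp1 to 65.2% for Fbln5, against a median of 52.0% over all promoters.

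Efemp1 encodes fibulin-3, a short fibulin of basement membranes and elastic tissues, and it was the gene of the set that differed most between genotypes in both arms. It had 759, 638 and 516 CPM in STZ knockouts, against 20.4, 41.1 and 36.9 CPM in STZ controls. In the baseline mice, which are other animals than those of the STZ comparison, it had 568, 346 and 296 CPM in knockouts, against 34.7, 23.6 and 60.6 CPM in controls. Every knockout library of either arm lay above every control library of either arm. The knockout over control fold was 19.5 after STZ (log2 fold change 4.29, SE 0.32) and 10.2 at baseline (log2 fold change 3.35, SE 0.44). In edgeR's quasi-likelihood test over 13475 genes the baseline difference missed the threshold of 0.05 (adjusted p = 0.0682), whereas DESeq2 gave an adjusted p of 4.14e-14. With all 12 libraries in 1 edgeR fit the baseline log2 fold change was 3.35 with an adjusted p of 0.00321. Leaving out each baseline mouse in turn gave log2 fold changes from 3.00 to 3.79.

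**Figure D1:**
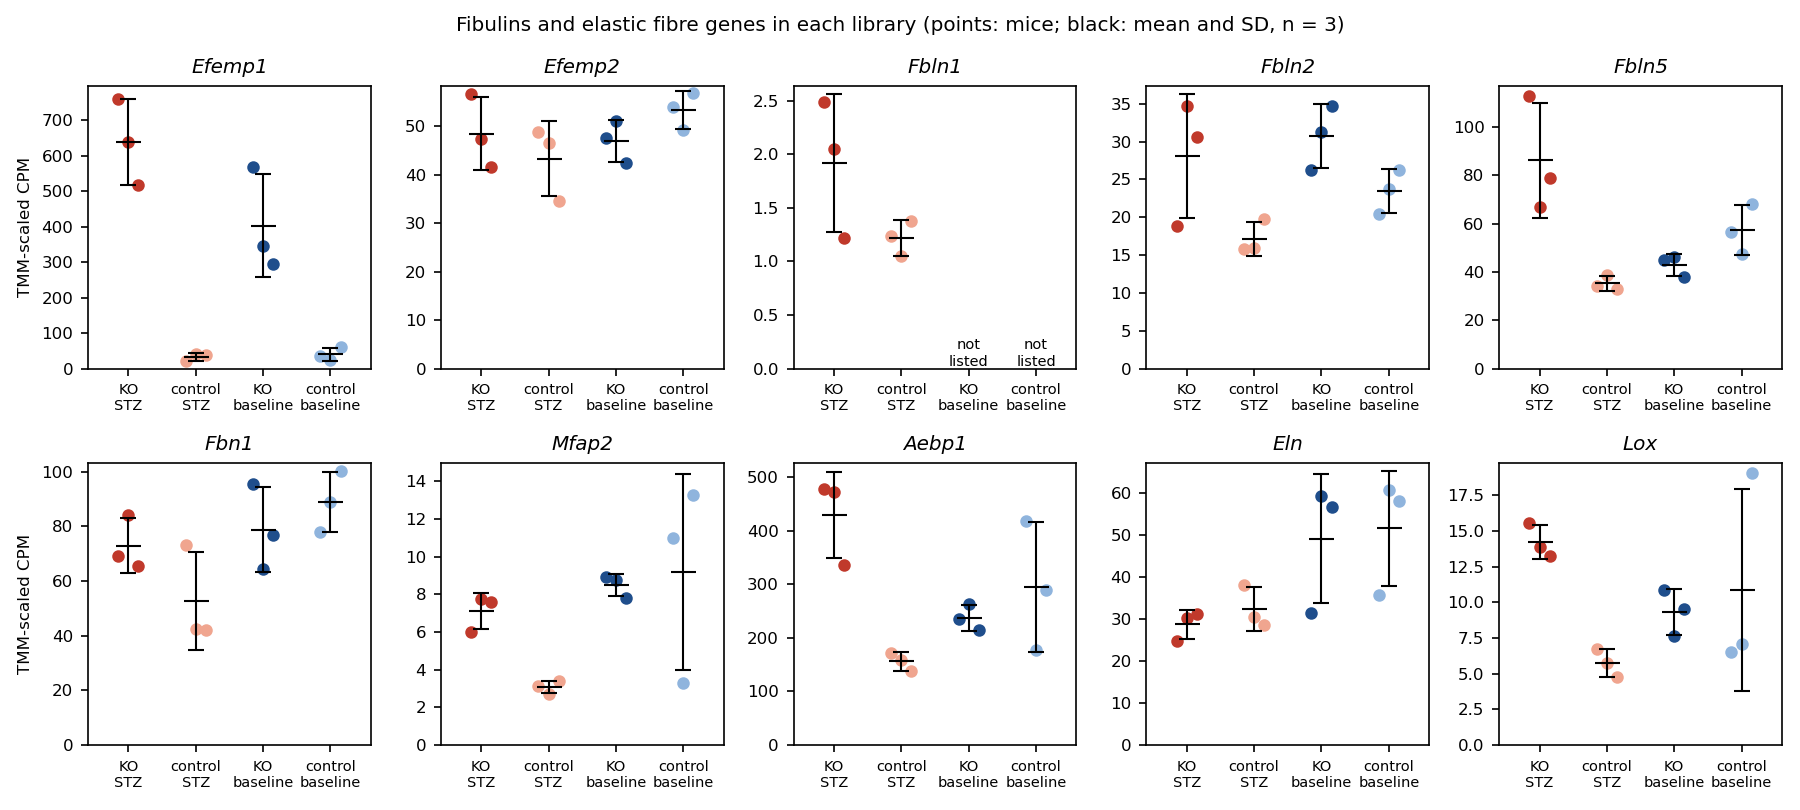
Level of each of the 10 genes in every library, as CPM scaled with TMM factors (y axis, linear and from 0), with 1 point per mouse and the mean and SD of 3 mice in black. Groups run from left to right as STZ knockouts, STZ controls, baseline knockouts and baseline controls. Efemp1 is high in all 6 knockout libraries, Aebp1 and Fbln5 are highest in STZ knockouts, and Eln shows overlapping genotypes in both arms.

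Efemp2 encodes fibulin-4, which is needed for elastic fibre assembly and brings lysyl oxidase to tropoelastin. It stayed between 34.5 and 56.9 CPM over the 12 libraries, where Efemp1 ran from 20.4 to 759 CPM. It had 56.6, 47.3 and 41.6 CPM in STZ knockouts, against 48.9, 46.6 and 34.5 CPM in STZ controls, and the groups overlapped. At baseline it had 47.6, 51.0 and 42.4 CPM in knockouts, against 53.9, 49.3 and 56.9 CPM in controls, again with overlap. Its knockout over control log2 fold change was 0.16 (SE 0.18) after STZ and -0.18 (SE 0.11, adjusted p = 0.802, edgeR) at baseline.

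Fbln5 encodes fibulin-5, which binds tropoelastin and integrins and is required for normal elastic fibres in mice. Its 2 knockout differences pointed in opposite directions in the 2 arms. It had 113, 67.1 and 78.8 CPM in STZ knockouts, against 34.1, 39.0 and 32.8 CPM in STZ controls. At baseline it had 44.8, 46.4 and 37.8 CPM in knockouts, against 56.5, 47.5 and 68.3 CPM in controls. After STZ every knockout was above every control, and at baseline every knockout was below every control. The log2 fold change was 1.29 (SE 0.20, a fold of 2.45) after STZ and -0.42 (SE 0.16) at baseline, where it did not pass (adjusted p = 0.694, edgeR).

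Fbln2 and Fbln1 encode the long fibulins, which sit in basement membranes and around elastic fibres. Fbln2 had 18.9, 34.8 and 30.6 CPM in STZ knockouts, against 15.7, 15.9 and 19.8 CPM in STZ controls. At baseline it had 26.3, 31.3 and 34.7 CPM in knockouts, against 20.5, 23.7 and 26.3 CPM in controls. The genotypes overlapped after STZ, and at baseline the lowest knockout lay just above the highest control. The log2 fold change of Fbln2 was 0.72 (SE 0.24) after STZ and 0.39 (SE 0.15, adjusted p = 0.694, edgeR) at baseline. Fbln1 was close to the lower edge of the STZ tables, with 185.5, 159.5 and 89 counts in STZ knockouts, against 88.5, 79.5 and 96 counts in STZ controls. Its log2 fold change after STZ was 0.65 (SE 0.29), but it reached the table's count of 100 only through 2 knockout libraries, so it was listed because it was high there.

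Fbn1 encodes fibrillin-1, the main structural protein of microfibrils, and Mfap2 encodes MAGP-1, a small glycoprotein bound to them. Fbn1 had 69.1, 84.3 and 65.5 CPM in STZ knockouts, against 73.4, 42.4 and 42.2 CPM in STZ controls. The first STZ control lay within the knockout range, and the log2 fold change was 0.47 (SE 0.25). At baseline Fbn1 had 95.4, 64.3 and 76.8 CPM in knockouts, against 78.0, 89.0 and 100.1 CPM in controls, with overlap and a difference of -0.18 on the log2 scale (SE 0.17, adjusted p = 0.841, edgeR). Mfap2 had 6.00, 7.74 and 7.60 CPM in STZ knockouts, against 3.15, 2.72 and 3.38 CPM in STZ controls. These STZ groups did not overlap, and the log2 fold change was 1.21 (SE 0.18, a fold of 2.32). At baseline Mfap2 had 8.89, 8.76 and 7.79 CPM in knockouts, against 11.0, 3.31 and 13.3 CPM in controls. The baseline controls spanned the whole knockout range, with the second control low, and the log2 fold change was -0.11 (SE 0.47, adjusted p = 0.966, edgeR).

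Eln, the gene of tropoelastin, was the 1 gene of the set with a lower mean in knockouts in both arms, by about 1 SE or less each time. It had 24.8, 30.2 and 31.3 CPM in STZ knockouts, against 38.3, 30.4 and 28.6 CPM in STZ controls. At baseline it had 31.4, 59.5 and 56.8 CPM in knockouts, against 35.9, 60.8 and 58.2 CPM in controls. In each baseline group the first mouse was well below the other two. The log2 fold change was -0.17 (SE 0.17) after STZ and -0.07 (SE 0.31, adjusted p = 0.972, edgeR) at baseline.

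Lox encodes lysyl oxidase, the copper enzyme that cross-links elastin and collagen, and Aebp1 encodes ACLP, a secreted collagen-binding protein of the matrix. Lox lies on chromosome 18 from 52516067 to 52529867 in the same annotation. Lox had 15.6, 13.9 and 13.2 CPM in STZ knockouts, against 6.71, 5.78 and 4.78 CPM in STZ controls, a fold of 2.48 (log2 fold change 1.31, SE 0.17). At baseline Lox had 10.8, 7.62 and 9.51 CPM in knockouts, against 6.54, 7.05 and 19.1 CPM in controls. The third baseline control was above every other library for Lox, the baseline groups overlapped, and the log2 fold change was -0.22 (SE 0.44, adjusted p = 0.929, edgeR). Aebp1 had 477, 472 and 336 CPM in STZ knockouts, against 171, 159 and 138 CPM in STZ controls, a fold of 2.75 (log2 fold change 1.46, SE 0.18). At baseline Aebp1 had 235, 263 and 214 CPM in knockouts, against 418, 177 and 290 CPM in controls. Here too the controls enclosed the knockouts, and the log2 fold change was -0.31 (SE 0.30, adjusted p = 0.836, edgeR).

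**Figure D2:**
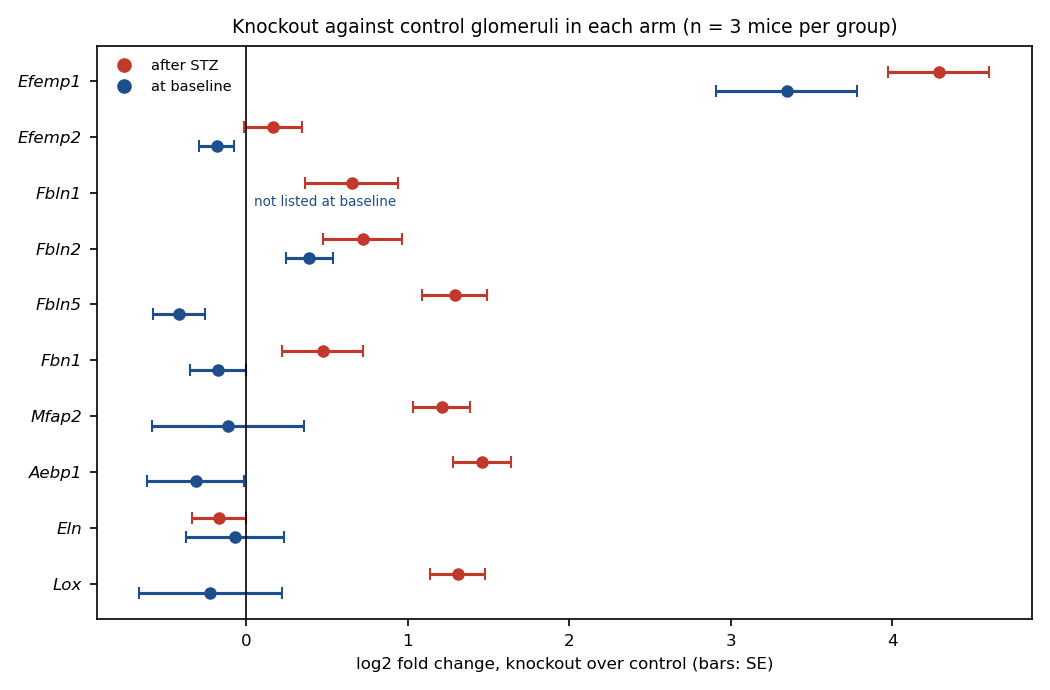
Log2 fold change of knockout over control (x axis) for each of the 10 genes after STZ and at baseline, as points with the SE of the edgeR fit on 3 mice per group. Efemp1 stands at 4.29 after STZ and 3.35 at baseline, whereas Fbln5, Mfap2, Aebp1 and Lox stand between 1.21 and 1.46 after STZ and between -0.42 and -0.11 at baseline.

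At baseline, 0 of the 9 listed genes passed edgeR's quasi-likelihood test at an adjusted p under 0.05, where 0.23% of all 13475 genes did (0.171% higher and 0.0594% lower). At an unadjusted p under 0.05 there were 3, Efemp1, Fbln2 and Fbln5, against 935 of all genes, and DESeq2 called 1, Efemp1, among 220 genes in all. Groups did not overlap for 2 genes that were higher (Efemp1 and Fbln2) and 1 that was lower (Fbln5), beside 4.98% of all genes higher and 6.86% lower. The median log2 fold change of the 9 was -0.18, against 0.01 over all genes. After STZ, 5 of 10 were called, all higher (Efemp1, Fbln5, Mfap2, Lox and Aebp1), beside 1.07% of 16291 genes (0.841% higher and 0.233% lower). The same 5 had groups that did not overlap, all higher, beside 8.62% of all genes higher and 6.26% lower (14.9% in all). The median was 0.97, against -0.02 over all genes, and 9 of 10 values were above 0. The set was built on this comparison, so nothing is read from these counts. Leaving out 1 STZ library left 1 or 2 of the 5 calls, Efemp1 each time. Lox was called when the first or the third STZ control was left out, and Aebp1 when the third STZ knockout was. Even so, the log2 fold change of Aebp1 stayed between 1.36 and 1.61 and that of Fbln5 between 1.06 and 1.44 in those fits.

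Per kilobase of exon, which lets genes be compared with each other, Aebp1 had the highest level in both control groups and Efemp1 in both knockout groups. In STZ knockouts Efemp1 averaged 313 CPM per kb and Aebp1 106 CPM per kb, with Efemp2 at 12.8 and Fbln5 at 12.5 CPM per kb. In STZ controls Aebp1 averaged 38.5, Efemp1 16.1, Efemp2 11.4 and Fbln5 5.11 CPM per kb. Efemp1 was thus level with Efemp2 in STZ controls, where their ranges overlapped, and far above it in STZ knockouts. In baseline knockouts Efemp1 averaged 198, Aebp1 58.5 and Efemp2 12.4 CPM per kb, while in baseline controls Aebp1 averaged 72.7, Efemp1 19.5 and Efemp2 14.1 CPM per kb. Efemp1 and Efemp2 overlapped in baseline controls as well. Mfap2, Fbn1 and Fbln5 stood next to each other in both baseline groups, with ranges that overlapped from one to the next, with Fbln5 at 6.22 CPM per kb in knockouts and 8.31 CPM per kb in controls. Lox was last of the 9 in every group, at 2.98 and 1.20 CPM per kb in STZ knockouts and STZ controls, and 1.95 and 2.28 CPM per kb in baseline knockouts and baseline controls. Fbln1 was lower still in the STZ arm, at 0.439 CPM per kb in knockouts and 0.279 CPM per kb in controls.

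STZ was compared with baseline within each genotype, on the 9 genes listed in both arms. In controls all 9 had lower means after STZ, with log2 fold changes from -1.60 for Mfap2 to -0.31 for Efemp1. With the 6 control libraries scaled together, every STZ control lay below every baseline control in 6 of the 9. These were Efemp2, Fbln2, Fbln5, Mfap2, Fbn1 and Aebp1, beside 10.3% of 13473 genes lower and 9.49% higher. With all 12 libraries scaled together Mfap2 overlapped, at 3.38 CPM in the third STZ control and 3.31 CPM in the second baseline control. Of the 9, 0 were called by edgeR, beside 0.23% of all genes (0.0445% higher and 0.186% lower), with 6 at an unadjusted p under 0.05, against 1693 of all 13473 genes. DESeq2 called 2 of the 9 (Fbln5 and Mfap2) and 410 genes in all. Fbln5 stood at -0.73 (SE 0.16, adjusted p = 0.192), Mfap2 at -1.60 (SE 0.47, adjusted p = 0.284), Fbn1 at -0.78 (SE 0.25, adjusted p = 0.316) and Aebp1 at -0.95 (SE 0.30, adjusted p = 0.317). The median over the 9 was -0.73, against 0.02 over all genes. In the same libraries the 6 mesangial markers had a median log2 fold change of -1.03 in STZ against baseline controls. The median was -0.47 for the 8 endothelial markers, -0.50 for the 7 listed fibroblast markers and 2.10 for the 6 immune markers listed in both arms. The first STZ control stood out for the immune sum, at 482 CPM against 92.9 and 101 CPM in the other STZ controls. Baseline controls had 31.5 to 51.3 CPM. The part of cell makeup in the members' values was not tested.

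In knockouts the picture was mixed, and this comparison uses the STZ knockout libraries on which the set was chosen. Fbln5 stood at 0.98 (SE 0.21, adjusted p = 0.128), Aebp1 at 0.83 (SE 0.17, adjusted p = 0.128) and Lox at 0.58 (SE 0.17, adjusted p = 0.209), each with every STZ knockout above every baseline knockout. Eln stood at -0.79 (SE 0.24, adjusted p = 0.223), with every STZ knockout below every baseline knockout. Groups did not overlap for 21.6% of all genes, 11.2% higher and 10.4% lower. Efemp1 stood at 0.63 (SE 0.29, adjusted p = 0.391), and its STZ and baseline knockouts overlapped. Of the 9, 0 were called by edgeR, beside 0.178% of all genes (0.111% higher and 0.0668% lower), with 4 at an unadjusted p under 0.05, against 1983 of all 13473 genes. DESeq2 called 2 of the 9 (Fbln5 and Aebp1) and 805 genes in all. The mesangial markers had a median of -0.73, with 5 of 6 at an unadjusted p under 0.05, and the endothelial markers -0.55, with 6 of 8. The immune markers had 1.54, with 5 of 6, and the fibroblast markers 0.22, with 4 of 7. The smooth muscle and renin markers had 0.58, with 3 of 5, and the podocyte markers 0.39, with 4 of 8. Parietal markers had 0.23, with 0 of 6, later tubule markers -0.15, with 1 of 6, and proximal tubule markers -1.14, with 0 of 10. The part of cell makeup in these values was not tested either.

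**Figure D3:**
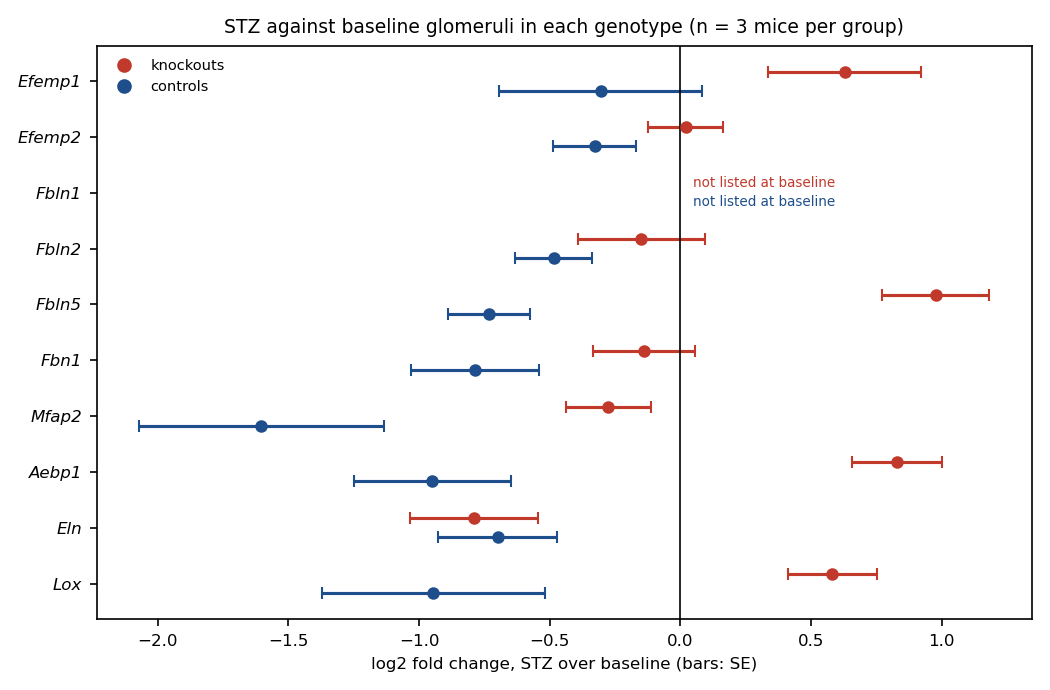
Log2 fold change of STZ over baseline (x axis) in knockouts and in controls for the 9 genes listed in both arms, as points with the SE of the edgeR fit on 3 mice per group. All 9 control values lie below 0, from -1.60 for Mfap2 to -0.31 for Efemp1, and in knockouts Fbln5, Aebp1, Efemp1 and Lox lie between 0.58 and 0.98.

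The difference between the knockout effects of the 2 arms was tested as an interaction over all 12 libraries, which include the libraries that chose the set. Nothing is therefore read from the interaction p-values of the 9 genes. The interaction is given as log2 fold change. It was 1.71 for Fbln5 (SE 0.28, adjusted p = 0.163), 1.77 for Aebp1 (SE 0.37, adjusted p = 0.559), 1.53 for Lox (SE 0.50, adjusted p = 0.975) and 1.32 for Mfap2 (SE 0.53, adjusted p = 0.975), in edgeR's quasi-likelihood test. For Efemp1 it was 0.94 (SE 0.53, adjusted p = 0.975), and for Eln -0.11 (SE 0.37, adjusted p = 0.987). Thus 0 of 9 passed, beside 0.00742% of 13475 genes, with 4 at an unadjusted p under 0.05, against 494 of all genes. DESeq2 called 2, Fbln5 (adjusted p = 1.90e-05) and Aebp1 (adjusted p = 0.00539), and 31 genes in all. The median interaction was 0.94 over the 9 genes, against -0.03 over all genes. Over the 5 smooth muscle and renin markers listed in both arms it was 0.96, with 4 at an unadjusted p under 0.05. Over the 7 fibroblast markers it was 0.75, with 4. The other lists had 0.25 for mesangial, 0.22 for podocyte, 0.02 for parietal and -0.17 for endothelial markers. Later tubule markers had -0.20, immune markers -0.49 and proximal tubule markers -1.01. The part of any of these cells in the members' values was not tested.

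By pattern over the 12 libraries, after centring each arm on its mean log2 CPM, the genes most like Efemp1 among 13470 were Prm1 (Pearson r 0.982), Cyp27a1 (0.982), Gabrb1 (0.978), Mboat2 (0.978) and Cxadr (0.977). These values are descriptions over libraries that share their genotype groups. Prm1 is a protamine gene of spermatids, Cyp27a1 encodes a mitochondrial sterol hydroxylase, Gabrb1 a GABA-A receptor subunit, Mboat2 a lysophospholipid acyltransferase and Cxadr a tight-junction adhesion molecule. Prm1 averaged 52.1 ± 6.96 CPM in STZ knockouts and 0.023 ± 0.015 CPM in STZ controls, and 35.5 ± 3.05 CPM in baseline knockouts and 0.056 ± 0.049 CPM in baseline controls (SD, n = 3 each). It therefore met the minimum mean of 1 CPM for this ranking only through the knockouts. Cyp27a1 averaged 151 ± 18.5 CPM in STZ knockouts and 51.6 ± 10.7 CPM in STZ controls, and 89.6 ± 7.63 CPM in baseline knockouts and 40.3 ± 4.54 CPM in baseline controls (SD, n = 3 each). Within the set, by the same measure, Fbln5 and Aebp1 were the most alike (r 0.87), followed by Mfap2 with Aebp1 (0.82) and Fbln5 with Lox (0.80). Eln ran below 0 with 7 of the other 8 genes, the exception being Fbln2 (0.16).

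Other genes of the elastic fibre pathway were read from lists of partners, enzymes and ligands. Of the microfibril and elastic fibre partners, 21 of 23 were listed after STZ and 17 at baseline, and edgeR called 0 in either knockout comparison. At an unadjusted p under 0.05 there were 6 after STZ and 3 at baseline, beside 1480 of 16291 and 935 of 13475 genes. DESeq2 called 3 after STZ, all higher (Ltbp3, Adamtsl2 and Fbln7), and 0 at baseline, beside 565 and 220 of all genes. The edgeR calls over all genes were 175 after STZ and 31 at baseline. Ltbp3, a carrier of latent TGF-beta, stood at 0.70 after STZ (SE 0.12, adjusted p = 0.0504, edgeR). The median log2 fold change was 0.05 after STZ and 0.02 at baseline. Adamtsl2, which encodes a fibrillin-binding protein, stood at 0.72 (SE 0.19, adjusted p = 0.210) after STZ and 0.80 (SE 0.27, adjusted p = 0.653) at baseline. Fbln7, a further fibulin outside the set, had 19.7, 20.1 and 12.8 CPM in STZ knockouts, against 5.81, 10.4 and 10.1 CPM in STZ controls (log2 fold change 1.01, SE 0.28, adjusted p = 0.247). At baseline Fbln7 stood at 0.41 (SE 0.19, adjusted p = 0.779). The other partners named by rank at baseline were Ltbp1, a further carrier of latent TGF-beta, at 0.36 (adjusted p = 0.694) and Thsd4, which binds fibrillin-1, at -0.37 (adjusted p = 0.708).

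Of 13 genes for cross-linking and maturation, 13 were listed after STZ and 11 at baseline, and edgeR called 0 in either arm. At an unadjusted p under 0.05 there were 4 after STZ, beside 1480 of 16291 genes, and 3 at baseline, beside 935 of 13475. DESeq2 called Bmp1, Loxl3 and Pcolce higher after STZ, among 565 genes in all. At baseline it called Loxl3 higher and Loxl2 lower, among 220 genes. Loxl2, a lysyl oxidase paralog that acts on basement membrane collagen, had 128, 212 and 128 CPM in baseline knockouts, against 374, 387 and 518 CPM in baseline controls. These groups did not overlap, and the log2 fold change was -1.45 (SE 0.25, adjusted p = 0.150, edgeR). After STZ Loxl2 had 116, 264 and 312 CPM in knockouts, against 499, 396 and 275 CPM in controls, with overlap. Loxl3, another paralog, stood at 1.01 (adjusted p = 0.0643) after STZ and 0.61 (adjusted p = 0.228) at baseline. Bmp1, the protease that processes procollagen and pro-lysyl oxidase, stood at 0.93 (adjusted p = 0.104) after STZ and 0.56 (adjusted p = 0.460) at baseline. Pcolce, the enhancer of that protease, stood at 0.53 (adjusted p = 0.136) after STZ and -0.33 (adjusted p = 0.779) at baseline. In both arms the log2 fold change of Loxl3 was above 0 and that of Loxl2 below 0. The median over the list was 0.10 after STZ and 0.00 at baseline.

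The elastin-degrading proteases held 9 listed genes after STZ and 8 at baseline, of which edgeR and DESeq2 called 0 in either arm and 0 had an unadjusted p under 0.05. Those of smallest p at baseline were Ctsl at -0.34, Cela1 at 0.69, Mmp14 at -0.10 and Mmp9 at -0.15 on the log2 scale. Among the inhibitors and fibulin-binding proteins, edgeR and DESeq2 each called 1 of 10 after STZ and 0 of 7 at baseline. Over all genes edgeR called 1.07% after STZ and 0.23% at baseline, and DESeq2 called 565 and 220 genes. At an unadjusted p under 0.05 there were 1 and 0 of this list, beside 1480 of 16291 and 935 of 13475 genes. The 1 was Cst3, the gene of the cathepsin inhibitor cystatin C, with 1065, 1025 and 1245 CPM in STZ knockouts, against 589, 484 and 476 CPM in STZ controls. Its log2 fold change was 1.11 (SE 0.15, adjusted p = 0.0298) after STZ and 0.12 (SE 0.15, adjusted p = 0.877) at baseline. Ecm1, which binds fibulins, stood at -0.20 at baseline, and the inhibitor genes Timp2 and A2m stood at -0.19 and -0.12 there. The elastin receptor complex (Glb1, Neu1 and Ctsa) had 0 of 3 called in either arm by either tool and 0 at an unadjusted p under 0.05, with medians of 0.24 after STZ and 0.67 at baseline. Of 6 ligand genes of the TGF-beta family, edgeR called 0 in either arm, with 1 after STZ and 0 at baseline at an unadjusted p under 0.05. DESeq2 called Bmp7, an epithelial ligand of the kidney, lower after STZ, and its baseline log2 fold change was -0.94. At baseline Bmp4 stood at 0.40, Tgfb3 at -0.28 and Tgfb2 at -0.19.

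Several markers of other cells were read beside the set. The summed level of the 9 genes listed in both arms was 1121 to 1540 CPM in STZ knockouts, against 341 to 412 CPM in STZ controls, and 775 to 1068 CPM in baseline knockouts, against 481 to 716 CPM in baseline controls. Without Efemp1, around which the set was drawn up, the sum was 605 to 781 CPM in STZ knockouts, against 304 to 391 CPM in STZ controls, and 480 to 532 CPM in baseline knockouts, against 457 to 681 CPM in baseline controls. The baseline groups then overlapped, so Efemp1 alone set their sums apart. Fibroblast and adventitia markers were listed for 7 of 10 genes (Lum, Dpt and Clec3b were not listed in any table), and their sum was 1081 to 1124 CPM in STZ knockouts, against 933 to 1182 CPM in STZ controls. At baseline that sum was 872 to 1039 CPM in knockouts, against 1069 to 1419 CPM in controls. The fibroblast sums thus overlapped between genotypes after STZ and lay apart, lower in knockouts, at baseline. The sum is carried by Gsn, at 650 ± 33.1 CPM in STZ knockouts and 634 ± 109 CPM in STZ controls, and by Pi16, at 241 ± 10.9 CPM in STZ knockouts and 230 ± 23.2 CPM in STZ controls (SD, n = 3 each). The mean log2 CPM of the same 7 genes, which weights them alike, did not overlap after STZ, at 5.83, 5.98 and 5.76 in knockouts, against 5.62, 5.69 and 5.36 in controls. At baseline that mean was 5.46, 5.91 and 5.69 in knockouts, against 5.70, 6.11 and 6.08 in controls, with overlap. Col1a1 stood at 0.76 (adjusted p = 0.117), Col3a1 at 0.84 (adjusted p = 0.228) and Dcn at 0.75 (adjusted p = 0.540), against -0.16 for Col1a2 and -0.23 for Pdgfra, and DESeq2 called Col1a1 and Col3a1 higher. The mean of the fibroblast list was also fitted as a covariate, which takes 1 degree of freedom. The log2 fold change after STZ was then 4.32 for Efemp1, 1.32 for Fbln5, 1.29 for Mfap2, 1.07 for Lox and 1.14 for Aebp1. Of these 5, 0 were called, and that fit called 30 of 16291 genes in all, against 175 without the covariate.

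Smooth muscle and renin markers (5 listed in both arms) summed to 742 to 2258 CPM in STZ knockouts, against 564 to 754 CPM in STZ controls, and to 432 to 553 CPM in baseline knockouts, against 662 to 1044 CPM in baseline controls. The high sums came from Tagln, which encodes the actin-binding protein transgelin, with 733, 339 and 1583 CPM in STZ knockouts, against 61.9, 65.9 and 66.8 CPM in STZ controls. Without Tagln the other 4 markers summed to 403 to 674 CPM in STZ knockouts, against 498 to 687 CPM in STZ controls, and to 319 to 396 CPM in baseline knockouts, against 598 to 906 CPM in baseline controls. These sums overlapped after STZ and lay apart at baseline, where Ren1, the renin gene, stood at -1.43 (SE 0.31, adjusted p = 0.287, edgeR) and was called lower by DESeq2. Mesangial markers (6 of 6 listed) summed to 2023 to 2999 CPM in STZ knockouts, against 1512 to 2406 CPM in STZ controls, and to 3315 to 3672 CPM in baseline knockouts, against 3121 to 4068 CPM in baseline controls. The podocyte markers summed to 30478 to 31954 CPM in STZ knockouts, against 29437 to 36030 CPM in STZ controls, and to 18158 to 22319 CPM in baseline knockouts, against 20074 to 27461 CPM in baseline controls. Cdkn1c was the 1 podocyte marker called after STZ, with 695 ± 42.4 CPM in STZ knockouts, against 1185 ± 53.6 CPM in STZ controls (SD, n = 3 each, log2 fold change -0.77, adjusted p = 0.0465). Proximal tubule markers ranged widely within groups, from 1184 to 3256 CPM in STZ knockouts and 985 to 3593 CPM in STZ controls, and from 991 to 5838 CPM in baseline knockouts and 1424 to 3165 CPM in baseline controls. With the tubule mean as a covariate, Efemp1 at baseline stood at 3.66 with an adjusted p of 0.0178. Which cells of the glomerulus held the transcripts of the set was not tested.

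**Figure D4:**
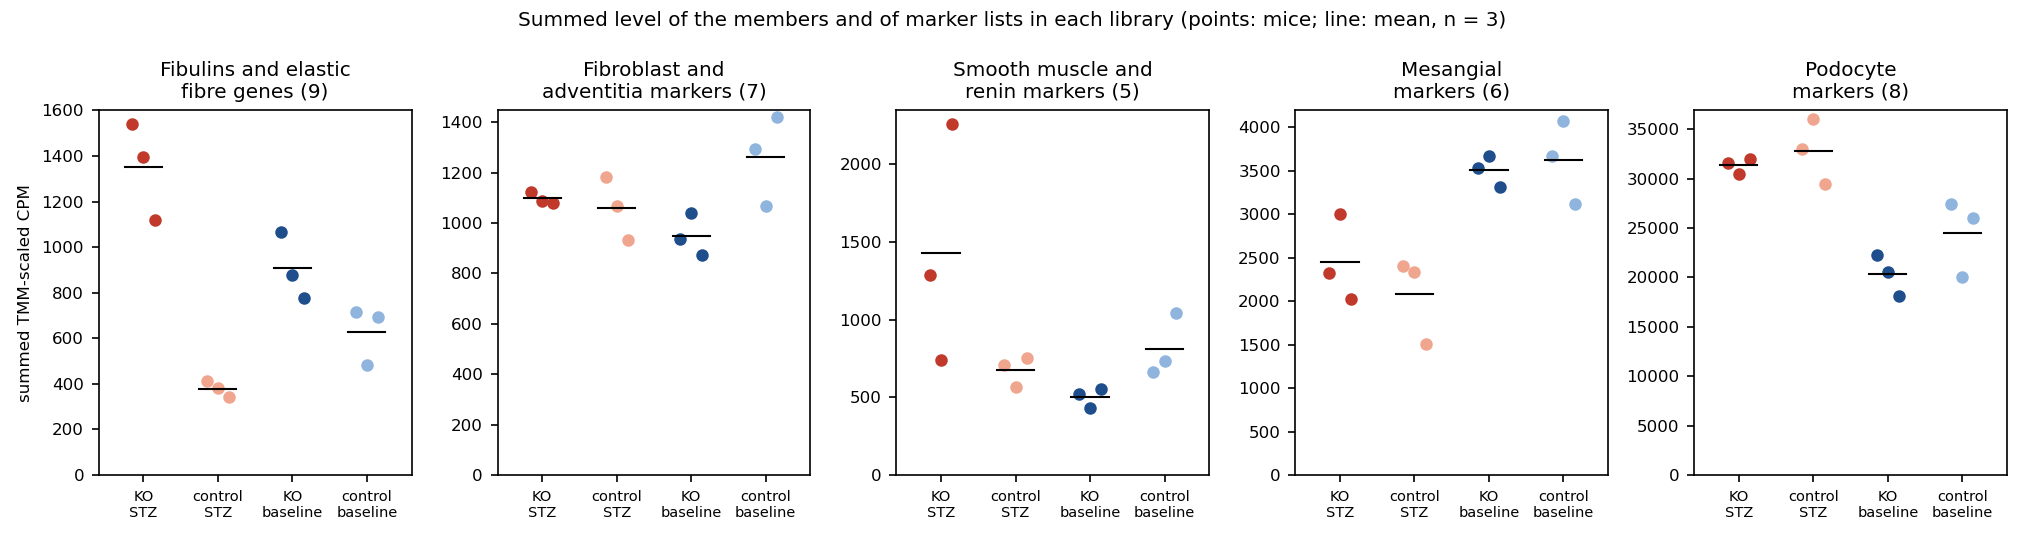
Summed CPM per library (y axes, linear and from 0, with a scale of their own in each panel) of the 9 fibulin and elastic fibre genes listed in both arms and of 4 marker lists, with the number of genes in brackets, 1 point per mouse and a line at the mean of 3. The sum of the 9 genes is 1121 to 1540 CPM in STZ knockouts, against 341 to 412 CPM in STZ controls. The set was drawn up around Efemp1, which was high in STZ knockouts, so nothing is read from this separation. Efemp1 makes up 45.7% to 49.3% of the sum in STZ knockouts. The fibroblast, mesangial and podocyte sums overlap between genotypes after STZ. The mean log2 CPM of the fibroblast list does not (5.76 to 5.98 in knockouts, against 5.36 to 5.69 in controls). At baseline the fibroblast sums do not overlap, at 872 to 1039 CPM in knockouts and 1069 to 1419 CPM in controls.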

How the data were processed

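The 12 RNA-seq libraries come from 4 groups of 3 mice, assigned from the labels. The values are estimated counts per gene symbol, which the authors deposited as 1 table per library, not scaled to depth. In each library 10.5% to 11.5% of values ended in 0.5, and all values were rounded to whole numbers before any fit. Per the submitters' processing notes BWA and the build mm10 were used. Which tool counted the reads, on which annotation and with which strand setting, is not given in the sources used here. The tables hold no 0, and 18 blanks were read as 0.

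Tests were edgeR's quasi-likelihood tests after filterByExpr and TMM scaling (R 4.3.3 with edgeR 4.0.16 and limma 3.58.1). P-values were adjusted by Benjamini-Hochberg over all genes tested, and genes under 0.05 were called. Knockouts were compared with controls on the 6 libraries of each arm, STZ and baseline on the 6 libraries of each genotype, and the interaction on all 12, the last 3 on the genes listed in both arms. The steps were tested on simulated counts. CPM were TMM-scaled over all 12 libraries, or within the STZ arm for Fbln1. Counts of genes whose groups did not overlap used only the groups compared, scaled together. Standard errors were derived from the F statistic. Alternatives were DESeq2 1.42.0, RLE factors, no filter, each library left out, all 12 libraries in 1 fit and the tubule or fibroblast mean as a covariate.

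The 10 genes and all lists were chosen with earlier results of these data known. Of each other list, up to 4 genes of smallest unadjusted p at baseline are named, plus any called gene. Ltbp3 and the fibroblast genes Col1a1, Col3a1, Dcn, Col1a2 and Pdgfra were named after their values were seen. The 5 genes most like Efemp1 had the highest Pearson r of log2 CPM (prior count 2), among genes with a mean of at least 1 CPM. Positions come from GENCODE (GRCm38) and promoters from RefSeq (GRCm38.p6). P-values set the difference between groups against the spread between mice within groups. In the main fits that spread comes from 3 mice per group and is moderated with information from all genes.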

Additional observations from a re-analysis of the deposited data

Results flagged for a closer look

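Fbln5 was lower in every baseline knockout than in any baseline control and higher in every STZ knockout than in any STZ control. The baseline margin was small, from 46.4 CPM in the highest knockout to 47.5 CPM in the lowest control. Groups lay apart as lower for 6.86% of all genes at baseline, and as higher for 8.62% after STZ. The knockout effects of the 2 arms had opposite signs, at -0.42 at baseline (SE 0.16, adjusted p = 0.694, edgeR) and 1.29 after STZ (SE 0.20). The difference between them was 1.71 on the log2 scale (SE 0.28), for which edgeR gave an adjusted p of 0.163 and DESeq2 one of 1.90e-05. Some marker lists of other cells also had a median knockout effect below 0 at baseline and above 0 after STZ, and others did not. The smooth muscle and renin list had 0.06 after STZ (6 genes, with Cnn1) and -0.41 at baseline (5 genes). Its median interaction was 0.96, with 4 of 5 genes at an unadjusted p under 0.05, against 494 of all 13475 genes. The fibroblast list had 0.07 after STZ and -0.18 at baseline, with a median interaction of 0.75 and 4 of 7 genes. The mesangial list had 0.18 and -0.10, with a median interaction of 0.25 and 0 of 6 genes. Median interactions were 0.22 for podocyte, 0.02 for parietal, -0.17 for endothelial, -0.20 for later tubule, -0.49 for immune and -1.01 for proximal tubule markers. The part of any of these cells in the Fbln5 result was not tested. The comparison includes the STZ libraries that chose the set, so nothing is read from the interaction p-values of Fbln5. The 2 arms also differ in depth and in the filter of their tables.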

How the results depend on the processing

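No paired analysis was possible because the labels give the groups no shared replicate numbers. At baseline the count of the 9 genes called by edgeR, 0, was 1 in DESeq2, in the fit of all 12 libraries and with the tubule covariate. The 31 genes called in all became 220 in DESeq2, 79 with all 12 libraries, 56 with the tubule covariate, 14 with the fibroblast covariate and 4 to 51 with 1 library left out. After STZ the 5 genes of the set called became 3 with all 12 libraries (Efemp1, Fbln5 and Aebp1), 0 with the fibroblast covariate and 1 to 2 with 1 library left out. The 175 genes called in all became 565 in DESeq2, 293 with all 12 libraries, 317 with the tubule covariate, 30 with the fibroblast covariate and 40 to 109 with 1 library left out. For STZ against baseline in controls DESeq2 called 2 of the 9 and 410 genes in all, against 31 in edgeR and 4 to 12 with 1 library left out. In knockouts DESeq2 called 2 of the 9 and 805 genes, against 24 in edgeR and 1 to 8 with 1 library left out. For the interaction DESeq2 called 2 of the 9 and 31 genes, RLE factors gave 2 genes against 1, and leaving out 1 library gave 0 to 2. The cause of these differences was not tested, except that fits with 1 library left out have fewer samples.

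Signs turned for small values only. With the tubule covariate Mfap2 at baseline was 0.18, and with the fibroblast covariate Eln at baseline was 0.46 and Efemp2 after STZ -0.16. With 1 library left out, the baseline knockout effect ranged from -0.52 to 0.25 for Mfap2, -0.58 to 0.024 for Aebp1, -0.27 to 0.16 for Eln and -0.48 to 0.46 for Lox. The STZ effect ranged from -0.57 to 0.14 for Efemp1 in controls, and in knockouts from -0.10 to 0.11 for Efemp2, -0.34 to 0.070 for Fbln2 and -0.28 to 0.037 for Fbn1. The interaction of Eln ranged from -0.35 to 0.10. Of 108 single-gene values at baseline 96 kept their direction and their side of the threshold, of 119 after STZ 90, of 81 for STZ in controls 78, of 81 in knockouts 75 and of 135 for the interaction 129. The 3 mice per group limit what could be called, and Fbln1, at 79.5 to 185.5 counts, is the gene of the set with the fewest reads.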
